A study of Zea mays with 6 samples.

Results

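The maize genes roothair defective1 (rth1, Zm00001d033303) and roothair defective3 (rth3, Zm00001d028826) were followed in root tips of plants under negative pressure irrigation (NPI) and under a comparison regime called DI. Both were picked by gene identifier, as 2 of the 45953 genes in the deposited table, and both passed the filter of a mean of at least 1 FPKM, the authors' level scaled for transcript length and library size. In all, 21902 genes passed it. Each regime had 3 messenger RNA libraries. Under NPI, soil draws its water from a supply kept below atmospheric pressure. For DI, the treatment label reads deficit irrigation while the description reads drip irrigation, so only the abbreviation is used. The labels name no inbred line, plant age or sampling time, and they do not say whether libraries came from separate plants, so the p-values reflect the spread among libraries alone, and that spread may be technical.

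Root hairs are tubular outgrowths of single epidermal cells that form behind the growing tip and enlarge the surface for uptake of water and ions. They grow at their own tip, where secretory vesicles deliver membrane and wall material. rth1 encodes a form of SEC3, a subunit of the exocyst, the complex that tethers such vesicles to the plasma membrane. rth3 encodes a COBRA-like protein, a wall-facing protein held to the plasma membrane by a lipid anchor. Maize mutants in either gene start root hairs that fail to elongate normally.

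Neither gene differed between the regimes beyond the spread of the libraries, but they behaved differently from library to library. rth1 lay at a moderate and steady level, with values in NPI mostly below those in DI. rth3 lay higher and varied several-fold within each regime, and the means of the regimes were close.

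rth1 had 8.35, 7.61 and 6.93 FPKM in NPI replicates 1 to 3, against 11.44, 8.32 and 9.91 FPKM in DI replicates 1 to 3. The highest NPI library, NPI-1, lay just above the lowest DI library, DI-2, and the groups overlapped at that single point. The mean was 7.63 ± 0.71 FPKM in NPI and 9.89 ± 1.56 FPKM in DI (SD, n = 3 each). edgeR's quasi-likelihood test over all 21902 genes gave a log2 difference of -0.31 (NPI minus DI, SE 0.237, adjusted p = 0.486). Its 95% interval, -0.87 to 0.25, leaves room for 0.547 to 1.19 times the DI level. Relative to the DI mean of log2 CPM, the count scaled to library size, the NPI libraries lay at -0.15, -0.47 and -0.29. All 3 were below that mean. The DI libraries lay at 0.24, -0.29 and 0.04, so DI-2 was level with NPI-3 and below NPI-1 on this scale. An exact two-sided permutation test of mean log2(FPKM + 1) gave p = 0.2, where 3 libraries against 3 cannot go below 0.1. In bulk tissue, fewer cells with the transcript and less transcript per cell cannot be told apart.

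rth3 had 41.11, 12.76 and 50.58 FPKM in NPI replicates 1 to 3, against 21.4, 31.58 and 52.53 FPKM in DI replicates 1 to 3. NPI-2 was the lowest of the 6 libraries and DI-3 the highest, and the groups overlapped almost fully. The mean was 34.8 ± 19.7 FPKM in NPI and 35.2 ± 15.9 FPKM in DI (SD, n = 3 each). edgeR gave a log2 difference of 0.11 (SE 0.591, adjusted p = 0.937), with a 95% interval from -1.28 to 1.5. That interval spans 0.411 to 2.82 times the DI level, which leaves room for a level well below or well above that of DI. The exact two-sided permutation p was 0.8. The sign turned on single libraries: the log2 difference was 0.53 without NPI-2, 0.54 without DI-3, -0.16 without DI-1 and -0.36 without NPI-3, with edgeR adjusted p of 0.386, 0.714, 0.939 and 0.783.

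**Figure D1:**
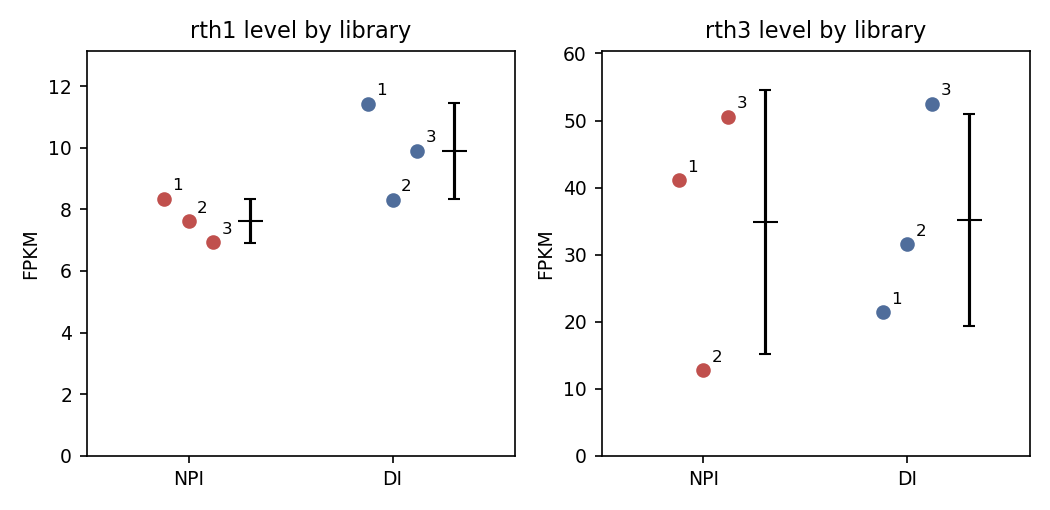
Level of rth1 (left) and rth3 (right) in FPKM on the vertical axes, by library. Points are libraries with their replicate number, and bars are the mean ± SD of 3 libraries. The rth1 groups overlap only at NPI-1 (8.35) and DI-2 (8.32), whereas rth3 spans 12.76 to 50.58 in NPI and 21.4 to 52.53 in DI.

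The spread of each gene within a regime was set beside that of all tested genes. The SD of log2(FPKM + 1) for rth1 was 0.12 in NPI, above that of 5% of tested genes, and 0.21 in DI, above that of 44%. For rth3 it was 1.03 in NPI and 0.63 in DI, above that of 89.3% and 91.8% of tested genes. The median tested gene had an SD of 0.48 in NPI and 0.23 in DI, so rth1 was among the steadiest genes in the more variable regime, and rth3 was among the more variable genes in both. The highest rth3 library exceeded the lowest 3.96-fold in NPI and 2.45-fold in DI. For rth1 these ratios were 1.2 and 1.38.

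On the FPKM scale, which accounts for transcript length, rth3 was above rth1 in every library. The ratio of rth3 to rth1 FPKM was 4.92, 1.68 and 7.3 in NPI replicates 1 to 3, against 1.87, 3.8 and 5.3 in DI replicates 1 to 3. The groups overlapped, and the log2 ratio averaged 1.97 ± 1.1 across NPI libraries and 1.74 ± 0.77 across DI libraries (SD, n = 3 each), with an exact permutation p of 0.8 (two-sided), a comparison added after the values were seen. Among tested genes, rth1 stood at the 50.7th to 56th percentile of FPKM in NPI libraries and at the 55.3rd to 65th in DI libraries. rth3 stood at the 66th to 90.1st percentile in NPI libraries and at the 79.3rd to 91.5th in DI libraries.

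Deposited counts were large for both genes in every library. Their counting error was not estimated. rth1 had 4455, 4405 and 3903 counts in NPI and 5674, 4530 and 6166 in DI. rth3 had 5621, 1895 and 7307 counts in NPI and 2722, 4412 and 8384 in DI. Total counts per library ran from 59900871 to 65917999 in NPI and from 57792439 to 71957443 in DI.

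Both genes lie on the plus strand of chromosome 1 in the deposited table, and the sources used here give no genome build for it. rth1 runs from 258164182 to 258177505, a span of 13324 bp with 8 annotated transcripts, and rth3 from 47787874 to 47789877, a span of 2004 bp with 1 transcript. No other annotated gene overlaps either of them. The nearest gene after rth1, Zm00001d033304, described as a nucleotide binding protein, starts 4505 bp beyond it and had 0 FPKM in the 3 NPI libraries and 0.08, 0.07 and 0.06 FPKM in DI. The nearest gene before it, Zm00001d033302, named for a subunit of the signal recognition particle, was listed at 0 in all 6 libraries.

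The genes beside rth3 were transcribed and varied less between libraries. Zm00001d028827, described as the organelle exonuclease DPD1, starts 2558 bp beyond rth3 and had 2.84, 5.13 and 2.69 FPKM in NPI and 5.18, 4.07 and 3.99 FPKM in DI. It was highest within NPI in NPI-2, the library where rth3 was lowest. Zm00001d028825, a Rossmann-fold protein gene that ends 33868 bp before rth3, had 10.55, 8.83 and 10.14 FPKM in NPI and 9.38, 8.91 and 7.7 FPKM in DI. It was lowest within NPI in NPI-2, as rth3 was, but by a far smaller margin, and within DI it was lowest in DI-3, where rth3 was highest.

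The modelled transcript lengths of the members differ, and the rth1 value moved when a trend over length was removed. Taking deposited count over FPKM as a measure of length, the rth1 transcript came out at 4.32 times the median tested gene, longer than 97.2% of tested genes and in decile 10, the longest. The rth3 transcript came out at 1.11 times the median, in decile 6. Across all tested genes the median log2 difference was 0.48 in the shortest decile, 0.05 in decile 6 and -0.24 in decile 10, beside -0.31 for rth1. With each library's trend over transcript length removed, the edgeR log2 difference of rth1 was 0.01 (adjusted p = 0.986) and that of rth3 was 0.09 (adjusted p = 0.952). Whether transcript length accounts for the lower rth1 values was not tested further.

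**Figure D2:**
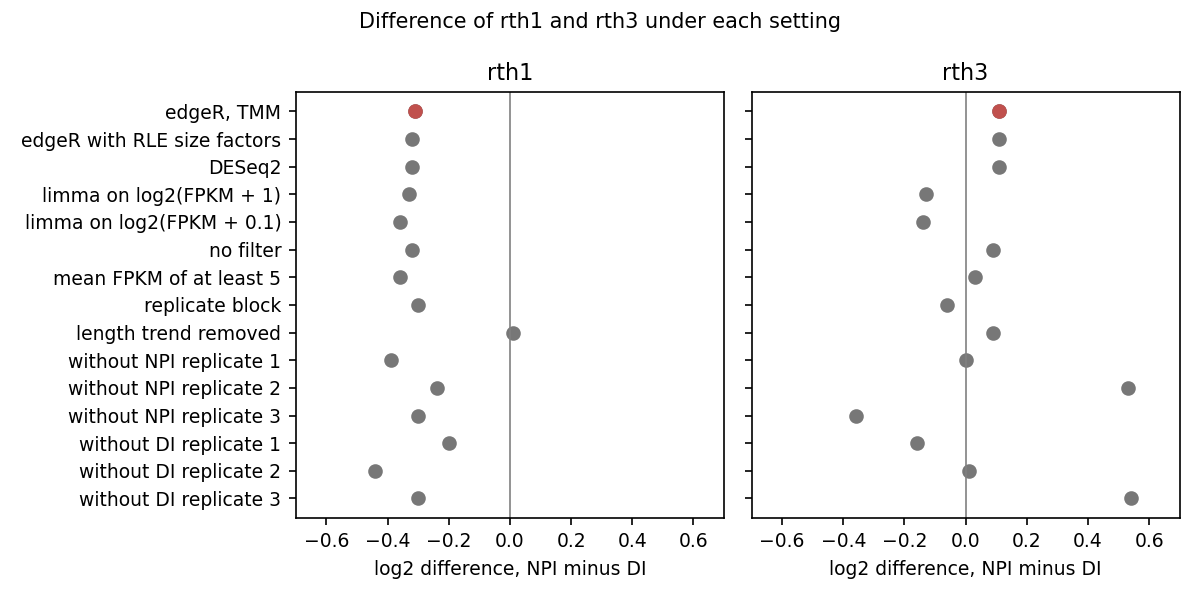
Log2 difference (NPI minus DI, horizontal axes) of rth1 and rth3 under each setting, with the edgeR value of the text in red and alternatives in grey. rth1 lies between -0.44 and -0.2 in all settings except the removal of the length trend (0.01), and rth3 lies on both sides of 0, from -0.36 to 0.54.

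In all, 18 genes of the table carry root hair in their name or description, of which 11 were tested. None passed an adjusted p of 0.05 in edgeR, where 0.0137% of tested genes did. None had an unadjusted edgeR p under 0.05, where 20.8% of tested genes had. DESeq2 called none of the 11, where it called 11.4% of tested genes. Of the 11, 4 had positive and 7 negative log2 differences, with a median of -0.12 beside 0.07 over all tested genes. With the length trend removed the signs were 7 positive and 4 negative, with a median of 0.01. FPKM of the groups did not overlap in 1 of the 11, which was lower in NPI, where 13.7% of tested genes were.

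That gene was Zm00001d044271, described as ROOT HAIR DEFECTIVE 3, a GTPase that shapes the endoplasmic reticulum in Arabidopsis and is unrelated to maize rth3. It had 33.98, 26.27 and 29.24 FPKM in NPI, against 47.15, 43.48 and 39.92 FPKM in DI, and every NPI library lay below every DI library. Its log2 difference was -0.47 (SE 0.255, edgeR adjusted p = 0.332).

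The other 4 tested members of the GTPase family, like Zm00001d044271, had a larger SD of FPKM in NPI than in DI. So did the median tested gene on log2(FPKM + 1), with an SD of 0.48 in NPI and 0.23 in DI. Zm00001d011213 had 29.72, 8.42 and 12.81 FPKM in NPI and 19.24, 21.41 and 19.35 FPKM in DI. Its NPI libraries lay on both sides of a narrow DI range (log2 difference -0.15, edgeR adjusted p = 0.883). Zm00001d029592, Zm00001d030998 and Zm00001d009843 had log2 differences of 0.59, 0.35 and 0.14 with edgeR adjusted p of 0.537, 0.481 and 0.901.

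The 4 genes described as root hair specific 17, which the table annotates with fucose metabolism and glycosyl transfer, all had negative values. Zm00001d049210 had 8.14, 9.02 and 6.37 FPKM in NPI and 10.28, 10.82 and 8.41 FPKM in DI, overlapping through NPI-2 and DI-3 (log2 difference -0.27, edgeR adjusted p = 0.501). Zm00001d039127 was the steadiest, with 4.96, 5.39 and 4.24 FPKM in NPI and 5.69, 5.51 and 5.18 FPKM in DI (log2 difference -0.11, edgeR adjusted p = 0.788). For Zm00001d002668 the log2 difference was -0.12 (edgeR adjusted p = 0.905) and for Zm00001d021448 it was -0.44 (edgeR adjusted p = 0.7). In Zm00001d021448 the value of NPI-2, 5.22 FPKM, was above the DI range of 2.71 to 4.11 FPKM, while NPI-1 and NPI-3 lay below it at 0.96 and 1.34 FPKM. With the length trend removed, 3 of the 4 had log2 differences of 0.01 to 0.16, and Zm00001d021448 stayed negative.

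The third maize gene in the list that is named for a root hair mutant, roothairless6 (Zm00001d030121), did not pass the filter. It encodes a cellulose synthase-like D protein, an enzyme of wall glucan synthesis in tip-growing cells. Its values were 0.1, 0 and 0.05 FPKM in NPI and 0.4, 0.14 and 0.15 FPKM in DI, from 26, 0 and 15 counts in NPI and 98, 38 and 46 counts in DI. Every NPI library lay below every DI library, at levels far under those of rth1 and rth3. The other 6 untested genes of the list were a root hair specific 4 gene at 0 to 0.05 FPKM and 5 homologs of the GTPase, the highest of which reached 1.85 FPKM in NPI-1.

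**Figure D3:**
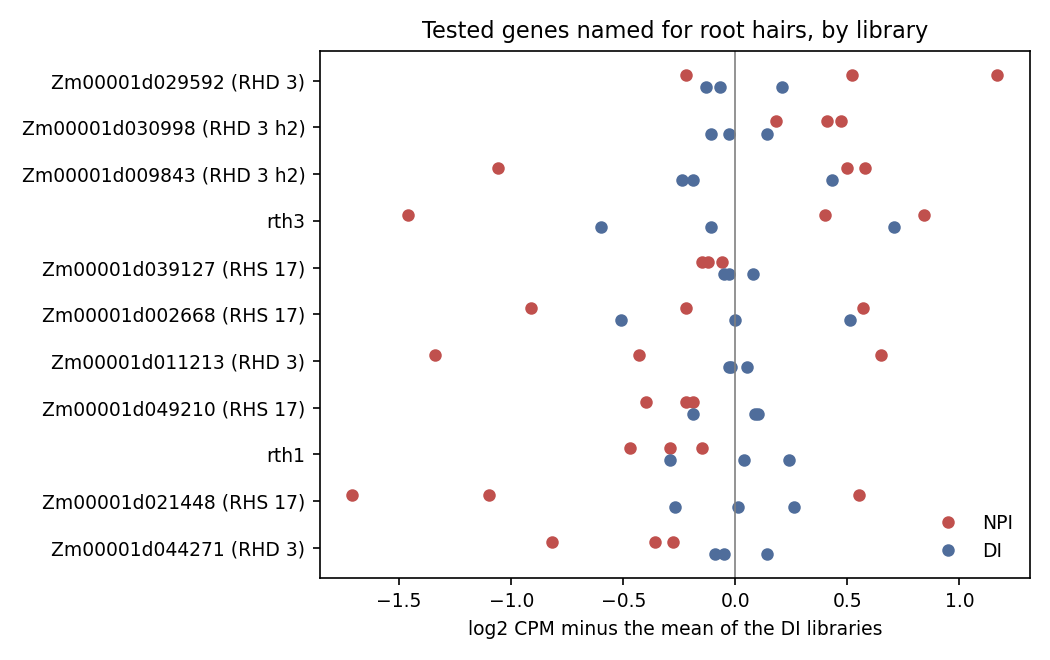
The 11 tested genes named or described for root hairs, ordered by log2 difference. Each point is a library (NPI red, DI blue) at its log2 CPM minus the mean of the DI libraries; RHD 3 stands for ROOT HAIR DEFECTIVE 3, h2 for homolog 2 and RHS 17 for root hair specific 17. rth1 has its NPI points at -0.47 to -0.15 and its DI points at -0.29 to 0.24. rth3 has its NPI points at -1.46 to 0.84 and its DI points at -0.6 to 0.71.

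rth1 was the main SEC3 transcript in these root tips. Of the other SEC3 genes, Zm00001d049087 had 0.39, 1.27 and 0.48 FPKM in NPI and 0.9, 1.07 and 0.76 FPKM in DI, and Zm00001d049086 was listed at 0 in all 6 libraries. rth1 held 95.5%, 85.7% and 93.5% of the summed SEC3 FPKM in NPI and 92.7%, 88.6% and 92.9% in DI. These shares overlapped between the groups. Counts of such related genes may be shared in part, since the sources used here do not say how reads that match several genes were handled.

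The other exocyst genes lay mostly on the lower side in NPI. Of 53 annotated exocyst genes other than rth1, 30 were tested, and 25 had negative and 5 positive log2 differences, with a median of -0.53 beside 0.07 over all tested genes. None passed in edgeR (smallest adjusted p = 0.118), while 9 had an unadjusted p under 0.05, as 20.8% of tested genes did. FPKM of the groups did not overlap in 12 of the 30 with NPI lower, where 13.7% of tested genes were, and in 1 of the 30 with NPI higher, where 13% were. DESeq2 called 5 of the 30 lower, where it called 4.53% of tested genes lower, and limma on log2(FPKM + 1) called none in this or the other lists. Without NPI-2, edgeR called 1 lower, the EXO84C gene Zm00001d021828 (adjusted p = 0.0295), where it called 5.19% of tested genes lower. The median log2 difference of the list was -0.42 with the length trend removed and -0.62 without NPI-2. The value of rth1, -0.31, was on the same side as the list and closer to 0 than its median, but with the length trend removed it was 0.01, and not on that side.

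SEC10 and EXO70 genes had the smallest p among those lower in NPI. The SEC10 gene Zm00001d041138, a core subunit, had 4.76, 7.95 and 6.73 FPKM in NPI and 16.55, 12.67 and 12.56 FPKM in DI, with no overlap (log2 difference -1.05, SE 0.271, edgeR adjusted p = 0.118). Zm00001d001765, an EXO70A1 gene, encodes a form of a subunit that binds the membrane. It had 46.77, 27.94 and 35.33 FPKM in NPI and 105.48, 79.33 and 78.3 FPKM in DI, again with no overlap (log2 difference -1.18, SE 0.316, edgeR adjusted p = 0.126). It had the highest mean FPKM of the exocyst genes.

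The 5 positive values were those of a SEC6 gene, a pair of SEC15A genes, a SEC5A gene and an EXO84B gene, and the groups did not overlap in the SEC6 gene. Zm00001d052245 had 13.25, 13.15 and 11.09 FPKM in NPI, above the 9.43, 7.19 and 8.65 FPKM of DI (log2 difference 0.62, SE 0.224, edgeR adjusted p = 0.189). It adjoins another SEC6 gene in the numbering, Zm00001d052244, which had 1.71, 1.63 and 1.77 FPKM in NPI and 3.57, 2.33 and 3.57 FPKM in DI, and counts of the pair may be shared. The values of Zm00001d052244 rest on only 16, 17 and 18 counts in NPI and 31, 22 and 39 in DI (edgeR adjusted p = 0.5). A SEC15A gene, Zm00001d047268, also had a positive log2 difference, 0.72 (SE 0.45, edgeR adjusted p = 0.398), with 1.45, 1.31 and 1.58 FPKM in NPI and 0.84, 1.31 and 0.64 FPKM in DI.

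Summed by subunit, the EXO70 genes had 100.11 to 120.56 FPKM in NPI and 189.07 to 224.01 in DI, and the EXO84 genes 12.51 to 18.78 in NPI and 21.48 to 21.94 in DI. The single SEC8 gene had 3.73 to 6.05 FPKM in NPI and 7.89 to 9.12 in DI. In these 3 subunits, as in SEC10, no NPI library reached the DI range. Of single tested genes, 13.7% had this, and the share for sums of genes was not computed. SEC8 and SEC10 are single genes already counted above, and the EXO70 sum includes Zm00001d001765, so these sums are not further evidence. The sums of SEC5, SEC6 and SEC15 overlapped, with 15.38 to 20.6, 18.31 to 26.69 and 16.4 to 28.89 FPKM in NPI and 15.74 to 21.53, 20.88 to 24.26 and 23.59 to 35.79 FPKM in DI.

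**Figure D4:**
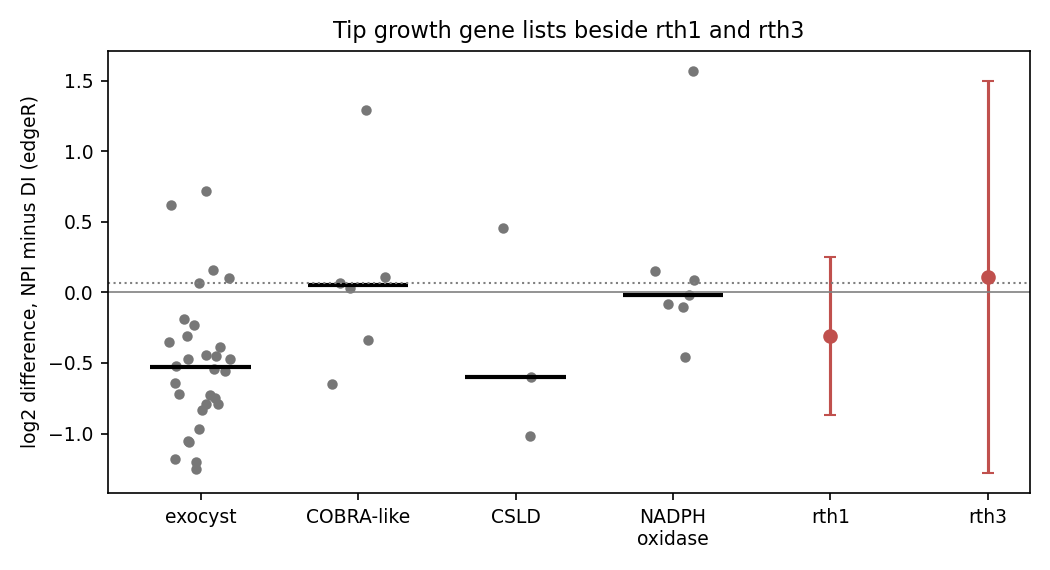
Log2 difference (NPI minus DI, edgeR, vertical axis) of the tested genes of 4 lists, with black lines at list medians, and of rth1 and rth3 with 95% intervals in red; the dotted line is the median of all tested genes, 0.07, and CSLD is cellulose synthase-like D. Of the exocyst points, 25 of 30 lie below 0, and the intervals of rth1 and rth3 both cross 0. The rth3 value is also among the COBRA-like points.

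rth3 was among the higher COBRA-like genes, with 2 or 3 others above it in each library. Of 10 such genes, 6 were tested, and none passed in edgeR or in DESeq2, which called 11.4% of tested genes. None had an unadjusted p under 0.05, as 20.8% of tested genes did, and none had groups that did not overlap, as 13% did with NPI higher and 13.7% with NPI lower. In a list of 6 genes, counts of 0 are near these shares. rth3 held 12.2%, 10% and 12.7% of the family's summed FPKM in NPI and 6.89%, 10.8% and 12.1% in DI. The top 2 in mean FPKM were the gene described as Protein COBRA, Zm00001d022081, and Zm00001d034049, a Brittle stalk-2-like gene. COBRA proteins guide the orientation of cellulose microfibrils.

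The low value of NPI-2 recurred across the family. Zm00001d022081 had 127.2, 36.46 and 143.94 FPKM in NPI and 134.6, 145.51 and 242.39 FPKM in DI, with the lowest value in NPI-2 (log2 difference -0.65, SE 0.582, edgeR adjusted p = 0.556). brittle stalk2 (Zm00001d047276), required for stalk strength through cellulose of secondary walls, had 53.82, 7 and 48.6 FPKM in NPI and 11.22, 15.03 and 22.46 FPKM in DI. Here too NPI-2 was lowest, while NPI-1 and NPI-3 exceeded all DI libraries. Its log2 difference was 1.29 (SE 0.73, edgeR adjusted p = 0.351), and it passed without NPI-2 (adjusted p = 0.0325), where 6.65% of tested genes were called higher. Relative to the DI mean of log2 CPM, the family median was 0.16, -1.36 and 0.68 in NPI replicates 1 to 3. Over all tested genes these medians were 0.02, 0.03 and 0.01. COBRA-like protein 4 (Zm00001d022082) had 6.02, 2.83 and 15.66 FPKM in NPI and 12.75, 13.17 and 8.5 FPKM in DI (log2 difference -0.34, edgeR adjusted p = 0.798). A second gene described as COBRA-like protein 7, Zm00001d007208, was not tested, at 0.25 to 1.43 FPKM in NPI and 0.35 to 0.76 FPKM in DI.

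Other genes of tip growth were examined from the same kind of list. Of 6 genes described as cellulose synthase-like D, 3 were tested. The list of 6 leaves out roothairless6, whose description does not name the family. None of the 3 was called in edgeR or in DESeq2, which called 11.4% of tested genes. In 1 of the 3 the unadjusted edgeR p was under 0.05, as in 20.8% of tested genes. Zm00001d021732 had 45.33, 4.67 and 56.77 FPKM in NPI and 35.21, 39.87 and 102.96 FPKM in DI, again lowest in NPI-2 and highest in DI-3, as rth3 was (log2 difference -0.6, SE 0.88, edgeR adjusted p = 0.726). The other tested genes of the list had log2 differences of -1.02 for Zm00001d021736 (edgeR adjusted p = 0.202) and 0.46 for Zm00001d021731 (edgeR adjusted p = 0.5), and counts of these similar genes may be shared.

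NADPH oxidases make the reactive oxygen that accompanies hair growth, and 7 of 13 were tested. None passed in edgeR, where 0.0137% of tested genes did, and 1 had an unadjusted p under 0.05, as 20.8% of tested genes did. Of the 7, 3 had positive and 4 negative values, with a median of -0.02 beside 0.07 over all tested genes. With the length trend removed the signs were 6 positive and 1 negative, with a median of 0.21. respiratory burst oxidase1 (Zm00001d042961) had 39.1, 24.16 and 41.41 FPKM in NPI, against 10.64, 9.54 and 17.27 FPKM in DI. Every NPI library lay above every DI library, where 13% of tested genes had this. Its log2 difference was 1.57 (SE 0.386, edgeR adjusted p = 0.111), and DESeq2 called it (adjusted p = 0.00453), where DESeq2 called 6.84% of tested genes higher. It also passed in edgeR without NPI-2 (adjusted p = 0.0311), where 6.65% of tested genes were called higher. Log2 differences were 0.15 for Zm00001d009248, -0.46 for Zm00001d040805 and -0.1 for respiratory burst oxidase3 (Zm00001d038762), with edgeR adjusted p of 0.767, 0.542 and 0.863. The gene with the highest FPKM, Zm00001d023859, was singled out after its values were seen: it had 278.16, 83.56 and 468.28 FPKM in NPI and 227.43, 250.44 and 378.06 FPKM in DI, with NPI-2 lowest (log2 difference 0.09, edgeR adjusted p = 0.952).

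Genes whose pattern over the 6 libraries was most like each member were found by Pearson correlation of log2(FPKM + 1) among 18985 described tested genes, as a description only. For rth1 the closest was Zm00001d017675, the mu subunit of the AP-2 adaptor of clathrin-coated vesicles, with r = 0.98. It had 27.31, 23.53 and 20.97 FPKM in NPI and 35.85, 25.48 and 29.39 FPKM in DI. Next came Zm00001d035004, described as a putative phosphatidylinositol-4-phosphate 5-kinase/zinc ion binding family gene, and Zm00001d004616, a Rossmann-fold protein gene (r = 0.98 for both). In all, 24 genes had r above 0.95 with rth1.

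For rth3 the closest were Zm00001d037207, a glycosyltransferase gene of the UDP-sugar family, Zm00001d039575, a gene of the oxidase that completes ethylene synthesis, and Zm00001d003671, a phospholipase C gene (r = 0.99 for each). Zm00001d039575 had 13.94, 6.82 and 15.12 FPKM in NPI and 10.09, 12.06 and 16.39 FPKM in DI, in the same order of libraries as rth3. In all, 45 genes had r above 0.95 with rth3. All these genes were read in the same 6 libraries and share their depth and tissue makeup.

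The label of root tip was set against marker genes, since hairs form behind the tip. Summed FPKM of 4 root cap genes ran from 28.01 to 140.67 in NPI and from 110.48 to 231.15 in DI, with 28.01, 140.67 and 39.69 across NPI replicates 1 to 3 against 231.15, 156.52 and 110.48 across DI replicates 1 to 3. Within each regime the library with the most root cap RNA had the least rth3. The order did not hold throughout: DI-3 had more root cap RNA than NPI-1 and NPI-3 and also the highest rth3, and NPI-1, with the least root cap RNA, had less rth3 than NPI-3. All 3 tested root cap genes had negative log2 differences, with a median of -2.99 beside 0.07 over all tested genes. Without DI-1 the signs were 1 positive and 2 negative, with a median of -0.53. FPKM of the groups did not overlap in 1 of the 3, which was lower in NPI, where 13.7% of tested genes were. edgeR called none of the 3, and without NPI-2 it called 2 lower, where it called 5.19% of tested genes lower. Root cap periphery gene2 (Zm00001d052527), which was not tested, was listed at 0 in all 3 NPI libraries and had 4.09, 0.24 and 0.03 FPKM in DI. The part of root cap RNA in the rth3 values was not tested. Cyclin B genes, markers of dividing cells, were present in all libraries, with 7 genes summing to 45.12 to 83.9 FPKM in NPI and 59.45 to 85.55 in DI. Genes of shoot photosynthesis, which root tips should lack, were low but not absent, with 20 genes summing to 61.07 to 84.98 FPKM in NPI and 38.97 to 100.96 in DI. Single members differed more than the sum. Of 14 tested, 5 had every NPI library above every DI library, where 13% of all tested genes did. DESeq2 called 3 higher, where it called 6.84% of tested genes higher. In edgeR none was called, where 0.0137% of tested genes were called in either direction. Rubisco small subunit1 (Zm00001d052595) had 38.08, 14.98 and 14.67 FPKM in NPI and 2.56, 7.08 and 2.76 FPKM in DI (log2 difference 2.53, DESeq2 adjusted p = 0.00075, edgeR adjusted p = 0.101, and 0.0393 without NPI-2). Without NPI-2, edgeR called 6.65% of tested genes higher.

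**Figure D5:**
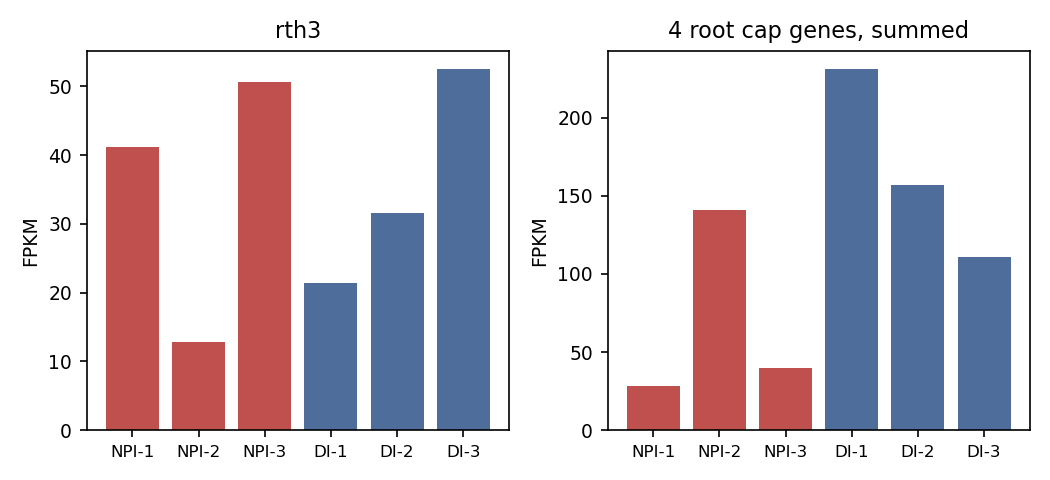
rth3 (left) and the summed level of 4 root cap genes (right) in each library, both in FPKM from 0 on the vertical axes, with NPI in red and DI in blue. In NPI, rth3 is lowest in NPI-2 (12.76), where root cap RNA is highest (140.67), and in DI it is lowest in DI-1 (21.4), where root cap RNA is highest (231.15).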

How the data were processed

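Poly(A) RNA from maize root tips was sequenced as read pairs, with 3 libraries per irrigation regime. The authors used HISAT2 2.0, FastQC 0.10.1, edgeR and StringTie 1.3.4, per the submitters' processing notes. The sources used here give neither the genome build nor the strand handling nor the treatment of multiply matching reads. The authors deposited FPKM and estimated counts per gene and library, and the deposited estimated counts were already whole numbers. FPKM gave the levels, the overlap of groups and the filter of a mean of at least 1 over the 6 libraries.

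edgeR 4.0.16 (R 4.3.3) tested the counts of the 21902 remaining genes with TMM factors and its two-sided quasi-likelihood test, NPI minus DI. P-values were adjusted by Benjamini-Hochberg over these genes, with a threshold of 0.05. The SE is the size of the log2 difference over the root of F, and intervals use the test's degrees of freedom. Per-library log2 CPM used a prior count of 1. The procedure was tested on simulated data. DESeq2 1.42.0 and limma 3.58.1 on log2(FPKM + 1) were alternatives, with other filters, scaling, pseudocount, a replicate block, removal of each library's trend over transcript length and each library left out. Figures used matplotlib 3.10.9.

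The members and lists were chosen with earlier results of these data known. Lists came from patterns on names and descriptions. Genes named were the members, tested genes named for root hairs, per list the 2 positive and 2 negative genes with the smallest p, flanking genes and the 3 described genes most like each member, where entries reading uncharacterized protein counted as not described. Other genes named were chosen after their values were seen. Among genes annotated to root hair terms in the gene ontology, a list added later, 8 of 9 were tested and none passed. One further planned gene list is not reported here.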

Additional observations from a re-analysis of the deposited data

How the results depend on the processing

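Neither member was called under any setting tried. rth1 stayed negative in all settings except removal of the length trend (0.01). Leaving out 1 library gave -0.44 to -0.2 for rth1 and -0.36 to 0.54 for rth3, and on log2(FPKM + 1) -0.44 to -0.23 and -0.5 to 0.46. rth3 was negative in limma with a pseudocount of 1 (-0.13) and 0.1 (-0.14) and with the replicate block (-0.06), and the cause was not tested. Limma moved the median of all genes to -0.04, from 0.07 in edgeR. Same-numbered libraries did not deviate together (r = -0.279, 0.2 and 0.199), so the numbers were not taken to pair them. These numbers are from the sample titles, and the descriptions of DI-2 and DI-3 both read repeat 3, so the check and the block rest on numbers in doubt for DI. With the block, rth1 had -0.3, and calls over all genes were 1 higher and 0 lower, beside 2 and 1 without it. Calls higher and lower were 1499 and 992 in DESeq2, 99 and 39 in limma, 99 and 30 with a pseudocount of 0.1, 13 and 5 without the filter, 11 and 4 at a mean FPKM of at least 5, and 0 to 1457 and 0 to 1136 with 1 library left out, the highest without NPI-2. In the lists, DESeq2 called 5 exocyst genes lower and 1 NADPH oxidase gene higher. With 1 library left out, 0 to 1 exocyst gene was called lower and 0 to 1 gene higher in each of the COBRA-like and NADPH oxidase lists. No root hair named gene was called (0 in each).

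A further 40 genes were chosen by the naming rule, the later list of root hair ontology terms or after their values were seen. Of these, 25 kept one direction under every alternative, and 7 were called under at least 1. The share of all tested genes called under at least 1 alternative was not computed, while DESeq2 alone called 11.4%. Genes with the smallest p were among the 40 by rule, so the 7 cannot be set against that share. For the other 15 of the 40, the sign turned under some alternative, and the cause was not tested. None of the 15 passed in edgeR with all libraries. With the length trend removed, the log2 difference was 0.25 for Zm00001d038762, 0.16 for Zm00001d039127, 0.01 for Zm00001d002668 and Zm00001d049210, -0.02 for Zm00001d009843 and -0.03 for Zm00001d037207. In limma with a pseudocount of 1 and of 0.1 it was -0.01 and -0.01 for Zm00001d004413, a cysteine synthase gene with a root hair ontology term. It was -0.0041 and -0.05 for Zm00001d009843, -0.07 and -0.07 for both Zm00001d037207 and Zm00001d034049, -0.1 and -0.18 for Zm00001d003671, and -0.32 and -0.33 for Zm00001d023859. With the replicate block it was -0.0049 for Zm00001d037207, -0.12 for Zm00001d003671, -0.24 for Zm00001d023859 and -0.01 for Zm00001d034049, which also had -0.00086 at a mean FPKM of at least 5.

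With 1 library left out, the sign turned in 13 of these genes. The range was -1.34 to 0.1 for Zm00001d022082, -1.21 to 0.08 for Zm00001d021732, -0.08 to 0.27 for Zm00001d009248, -0.25 to 0.08 for Zm00001d038762, -0.58 to 0.19 for Zm00001d002668, -0.11 to 0.52 for Zm00001d009843 and -0.81 to 0.21 for Zm00001d011213. It was -0.18 to 0.42 for Zm00001d037207, -0.29 to 0.32 for Zm00001d039575, -0.29 to 0.43 for Zm00001d003671, -0.63 to 0.55 for Zm00001d023859 and -0.31 to 0.36 for Zm00001d034049. For Zm00001d004413 it was -0.03 to 1.02, with a call without NPI-2 (edgeR adjusted p = 0.0445).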
